A study of Mus musculus with 6 samples.

Results

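miR-223 was compared between mouse regulatory and conventional CD4+ T cells. It was measured by 1 of the 178 probes of a two-colour array, 2org-223, and 171 of those probes are for microRNAs (miRNAs). The probe was chosen by its measured ratio between the populations, which was the highest on the array, so that ratio is given as a description with no test result. CD4+CD25+ cells, the fraction that holds natural regulatory T cells, and CD4+CD25- cells, the conventional T cells, gave total RNA that was hybridised together on 6 arrays. The series describes 3 biological replicates, each with a dye swap. Cy5 marked the CD4+CD25+ RNA on arrays 1, 3 and 5, and Cy3 marked it on arrays 2, 4 and 6. No treatment is named for either population. Strain, age, the purity of the sort, the animals behind each replicate and the arrays that form a dye-swap pair are not stated by the labels. A ratio gives no level, so the labelled cell types could not be checked against defining markers.

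miRNAs are short RNAs that guide Argonaute proteins to messenger RNAs and lower their output, mainly through pairing of the seed near the 5′ end. miR-223 is best known as a miRNA of the myeloid lineage, where the factors PU.1 and C/EBP drive its gene and where it restrains the production and activation of granulocytes. It is usually low in lymphocytes, and it is abundant in neutrophils and platelets. Its known targets include the mRNAs of Mef2c, of the inflammasome protein Nlrp3 and of the insulin-like growth factor receptor.

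The sequences below are those of the miRNA that the probe is named for, and the sequence of the probe itself was not examined. The probe ID does not name an arm of the hairpin, so both mature strands are printed, from RefSeq (GRCm38.p6), with the seed (bases 2 to 8) in capitals.

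miR-223-3p: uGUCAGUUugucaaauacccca
miR-223-5p: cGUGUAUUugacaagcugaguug

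The hairpin follows, with the 5p strand and then the 3p strand in capitals. Its gene, Mir223, lies on the plus strand at chrX:96242817-96242926 of GRCm38.p6, inside the span of the long noncoding RNA gene F630028O10Rik. The neighbouring genes are Gm9051 and Vsig4, and the nearest other miRNA gene of that table, Mir7673, is 1968.2 kb away.

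Mir223 hairpin: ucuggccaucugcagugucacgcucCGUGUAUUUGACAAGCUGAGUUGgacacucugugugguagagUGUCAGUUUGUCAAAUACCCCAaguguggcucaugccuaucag

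Neither seed of miR-223 was shared by any other of the 1679 mouse mature miRNAs in the RefSeq table, counting distinct names. Of the 171 miRNA probes, 151 matched that table by name, which gave 275 mature sequences other than those of miR-223. Among them, the sequences nearest to miR-223-3p were those of miR-204-5p and miR-218-2-3p, each 9 single-base edits away, and 5 more, among them miR-101a-3p, were 10 away; the median was 14. These 3 sequences are printed for comparison with miR-223-3p. Whether other miRNAs hybridise to the probe was not tested.

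miR-204-5p: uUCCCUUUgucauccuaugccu
miR-218-2-3p: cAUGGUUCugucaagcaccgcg
miR-101a-3p: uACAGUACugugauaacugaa

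The longest run in common with miR-223-3p was the 8 bases UUGUCAAA, in miR-301a-3p. The mean log2 ratios of the miR-204, miR-218, miR-101 and miR-301 probes were 1.15, 1.00, 0.84 and 0.76, against 4.12 for miR-223. Of its 22 bases, 40.9% of miR-223-3p are G or C, near the median of 45.5% for the other matched sequences. For miR-223-5p the share is 43.5%. The fewest edits to miR-223-5p were also 9, for miR-23b-5p, miR-210-3p, miR-103-1-5p and miR-103-2-5p. The mean log2 ratios of the miR-23b, miR-210 and miR-103 probes were 1.32, 0.91 and 0.35.

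All ratios below are log2 of CD4+CD25+ over CD4+CD25- cells. The deposited ratio was read as Cy5 over Cy3, which the table does not state, and arrays 2, 4 and 6 were multiplied by -1. The log base is not stated and was taken as log2, and the array medians were left as deposited. Over the miRNA probes, arrays of the same orientation correlated between 0.521 and 0.622 for arrays 1, 3 and 5 and between 0.901 and 0.918 for arrays 2, 4 and 6. Between turned arrays of opposite dye the correlation ranged from -0.251 to 0.369 with a median of 0.058. Over the other 170 probes it ranged from -0.326 to 0.323 with a median of -0.0066.

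The deposited values of miR-223 alternated in sign with the dye. They were 3.62, 3.54 and 4.99 on arrays 1, 3 and 5, the Cy5 orientation (CD4+CD25+ RNA in Cy5). They were -4.90, -2.93 and -4.71 on arrays 2, 4 and 6, the Cy3 orientation. After turning, miR-223 was above 0 on 6 of 6 arrays, and the orientations overlapped, with array 4 lowest and array 5 highest. The mean was 4.12 ± 0.855 (SD, n = 3 replicates), or 17.3-fold higher in CD4+CD25+ cells, and single arrays ranged from 7.63-fold to 31.7-fold. Because the dye-swap pairs are not named, this SD is the largest over the 6 ways of pairing opposite arrays, and the smallest was 0.138. In a sorted population, more cells with the miRNA and more of it per cell cannot be told apart.

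Without turning, as if the authors had already aligned the arrays, the mean would be -0.066 ± 0.950 (SD, n = 3) and the orientations would differ by 8.23. That would be the widest such difference among the miRNA probes, ahead of 5.82 for miR-214, with a median of 1.65 over all 171. This difference restates the turned mean ratio on another scale, so its rank was set by the choice of the probe. If the ratio is Cy3 over Cy5, every sign turns.

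On each of the 6 turned arrays miR-223 had the highest ratio of all 178 probes. The next miRNA probe was miR-214 on arrays 1, 2, 5 and 6, miR-23a on array 3 and miR-10a on array 4. The margin over the next probe was narrowest on array 1, at 0.27, and widest on array 3, at 1.52. Of the 170 other miRNA probes, 160 had no array on which they reached 2.93, the lowest value of miR-223.

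**Figure D1:**
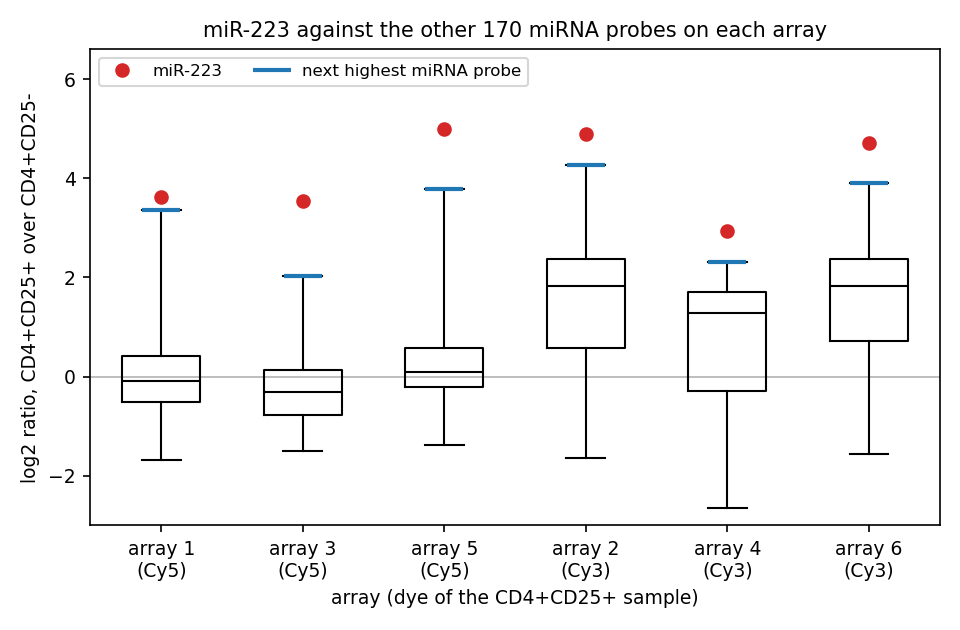
Turned log2 ratios of the miRNA probes on each array, with the dye of the CD4+CD25+ sample under the array number. Boxes give the quartiles and median of the other 170 miRNA probes, whiskers their full range, red points miR-223 and blue bars the next highest probe; miR-223 lies above every whisker, by 0.27 (array 1) to 1.52 (array 3).

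By mean ratio, the probes just below miR-223 were miR-214 at 2.91 ± 1.60 (SD, n = 3), miR-23a at 1.82 ± 0.730, miR-125a at 1.74 ± 0.292, miR-146 at 1.72 ± 0.517 and miR-297 at 1.62 ± 0.927. miR-214 was far less even than miR-223, with 0.23 on array 3 and 4.27 on array 2. Probe IDs carry 1 of 2 prefixes, which no label explains. miR-223 belongs to the smaller group, whose 44 probes had a median of 0.85, and the 127 of the other group had 0.82.

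Arrays differed in their zero point and width, and the size of the miR-223 ratio moved with how these were treated. Relative to the array median it stood at 3.71, 3.85 and 4.89 on arrays 1, 3 and 5, and at 3.07, 1.64 and 2.89 on arrays 2, 4 and 6, so the orientations no longer overlapped. The mean after this centring was 3.34 ± 0.654 (SD, n = 3), or 10.1-fold. Relative to 25 probes for miRNAs typical of embryonic stem cells, nerve, liver, muscle or epithelium (other-tissue probes) it was 3.20 ± 0.559, or 9.20-fold. Centred on U6, the spliceosomal RNA often used as a reference, and the tRNAs, it was 4.53 ± 1.12, or 23.1-fold. Scale normalization, which multiplies each array by its own factor, gave 5.01 ± 1.57, with means of 7.82 in the Cy5 orientation and 2.20 in the Cy3 orientation.

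**Figure D2:**
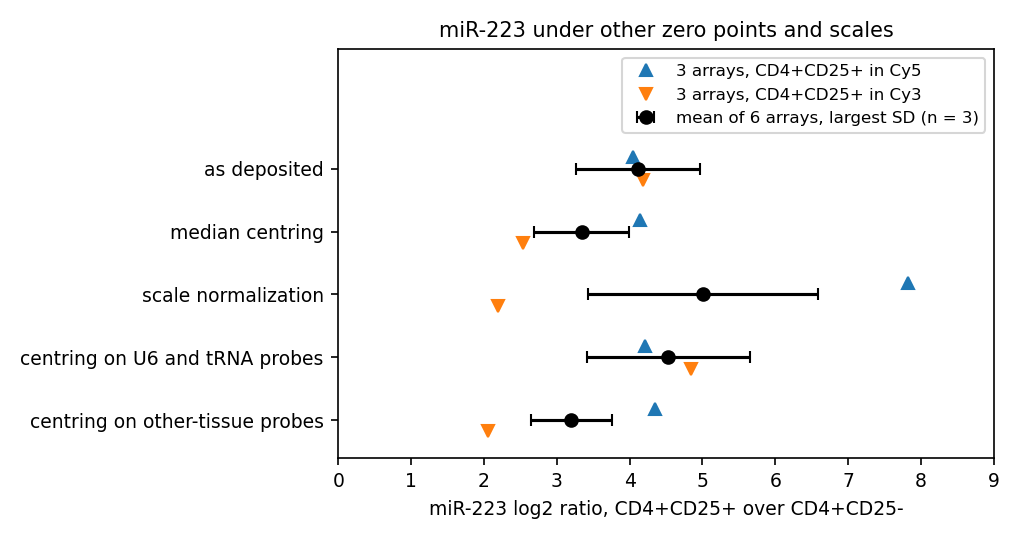
Mean log2 ratio of miR-223 as deposited and under 4 other zero points or scales. Black points are means of 6 arrays with the largest SD over pairings (n = 3), and triangles are the means of the 3 arrays of each dye orientation; the orientation means are 4.05 and 4.18 as deposited and 4.15 and 2.54 after median centring.

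The dye was tested in limma with a column for the orientation, a contrast that is orthogonal in this balanced design to the mean ratio that chose the probe. As deposited, miR-223 had means of 4.05 ± 0.813 in the Cy5 orientation and 4.18 ± 1.09 in the Cy3 orientation (SDs over 3 arrays each). The difference was -0.13 (limma, 95% interval -1.18 to 0.92; Benjamini-Hochberg adjusted p = 0.832) and did not pass. In the same test 70.2% of the 171 miRNA probes passed, 63.2% with higher ratios in the Cy3 orientation and 7.02% in the Cy5 orientation, around a median difference of -1.55. The missed threshold does not show equal ratios, since the interval spans more than 2 on the log2 scale. After median centring miR-223 had the higher ratio in the Cy5 orientation, by 1.61 (95% interval 0.74 to 2.49; limma adjusted p = 0.00306). Of the miRNA probes 45.6% passed then, 33.9% in that direction and 11.7% in the other. Whether miR-223 differed between the orientations therefore depended on the zero point.

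**Figure D3:**
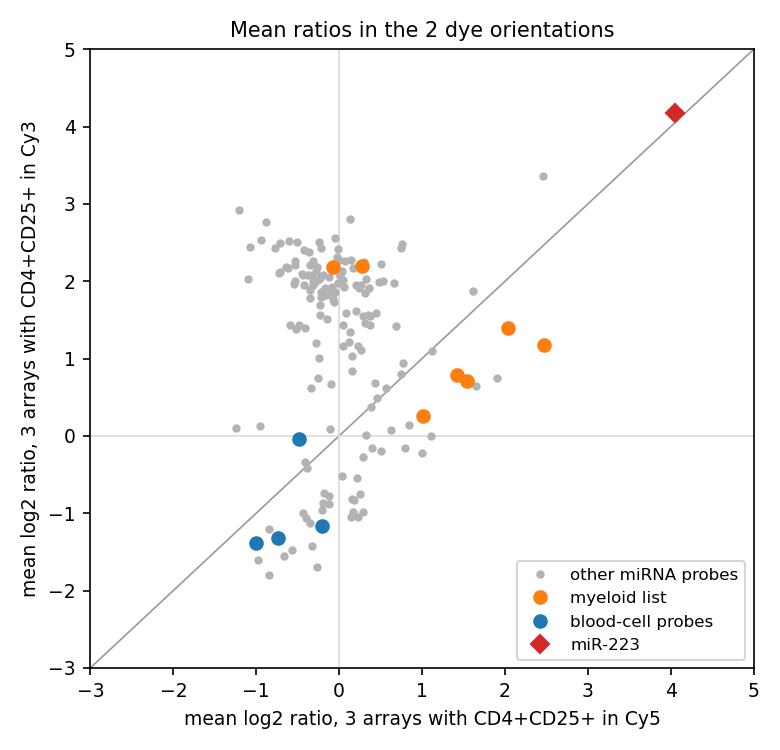
Mean turned log2 ratio of each of the 171 miRNA probes on the 3 arrays of the Cy5 orientation (horizontal) and the 3 of the Cy3 orientation (vertical), with the line of equal ratios. miR-223 lies near that line at 4.05 and 4.18, while many probes crowd near 0 on the horizontal and 2 on the vertical axis.

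The crowded region of that plot holds most other-tissue probes. The 25 had a median of -0.26 in the Cy5 orientation and of 2.10 in the Cy3 orientation, and 24 of 25 were higher in the latter. Most of the 170 miRNA probes other than miR-223, these 25 among them, were also higher in the Cy3 orientation. The medians of the 170 were -0.086 in Cy5 and 1.71 in Cy3, so the shift was not confined to other-tissue probes. miR-223 exceeded the highest mean of the other-tissue probes in both orientations, which was 1.11 in Cy5 and 2.92 in Cy3. Because the probe was chosen for the highest ratio, this order was largely set by that choice. Signal over background was not analysed here, so no probe could be marked as dim.

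Other miRNAs of blood cells did not share the high ratio of miR-223. The strand labelled miR-142-as, of a miRNA made throughout the blood lineages, stood at -1.14, -1.17 and -0.70 on arrays 1, 3 and 5 and at -0.96, -2.20 and -1.01 on arrays 2, 4 and 6. It was below 0 on 6 of 6 arrays, with a mean of -1.20 ± 0.440 (SD, n = 3). The strand labelled miR-142-s, of the same hairpin, split around 0, from -1.24 on array 1 to 0.55 on array 5, with a mean of -0.27 ± 0.538. miR-150, abundant in resting lymphocytes and a regulator of Myb, was between -1.52 and -0.42 on the 6 arrays, with a mean of -1.03 ± 0.255. The miR-181 probe, for a miRNA that tunes T cell receptor sensitivity, was above 0 on array 3 alone (0.35) and had a mean of -0.69 ± 0.338. Related probes outside this set of 4 were miR-142*, with a mean of -1.29, miR-181b, with 0.17, and miR-181c, with 0.38. In limma 3 of the 4 blood-cell probes were called lower in CD4+CD25+ cells, against 8.77% of the 171 miRNA probes. After median centring it was 4 of 4, against 22.8%. Their median was -0.86, and -1.64 after centring, beside 0.82 and 0.051 over all miRNA probes. Centred on U6 and the tRNAs it was 0 of 4 (limma, also 0 at an unadjusted p under 0.05), and without arrays 3 and 2 or without arrays 5 and 6 it was 0 of 4 (3 and 2 at an unadjusted p under 0.05). Without arrays 1 and 2, 1 and 4, 1 and 6, or 5 and 2 it was 2 of 4. With scale normalization or in the Cy5 orientation alone it was 1 of 4. Over all 171 miRNA probes, calls in either direction numbered 130 as deposited. They fell to 0 without arrays 3 and 2, 2 without arrays 5 and 6, 14 with scale normalization and 19 in Cy5 alone. Without arrays 3 and 2 no probe was called at all, so that 0 of 4 does not set the blood-cell probes apart. Outside the deposited and median-centred values, the share of all miRNA probes called lower was not counted. The blood-cell counts in those settings therefore have no matching background. Calls in either direction also fell without arrays 1 and 2, 1 and 6, or 5 and 2, but little without arrays 1 and 4. Centred on U6 and the tRNAs they numbered 127.

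A difference between probes within an array does not depend on that array's zero point. miR-223 exceeded the mean of the 4 blood-cell probes by 4.41, 4.14 and 5.43 on arrays 1, 3 and 5 and by 5.67, 4.27 and 5.55 on arrays 2, 4 and 6. The mean was 4.91 ± 0.677 (SD, n = 3), and the orientations overlapped. It is a difference of ratios, so it says nothing about which miRNA is more abundant. Against single probes it ranged from 4.38 ± 0.565 (miR-142-s) to 5.31 ± 0.430 (miR-142-as). Against U6 it was 4.81 ± 1.27, from 3.32 on array 3 to 6.01 on array 5, and U6 itself ranged from -1.13 to 0.22.

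**Figure D4:**
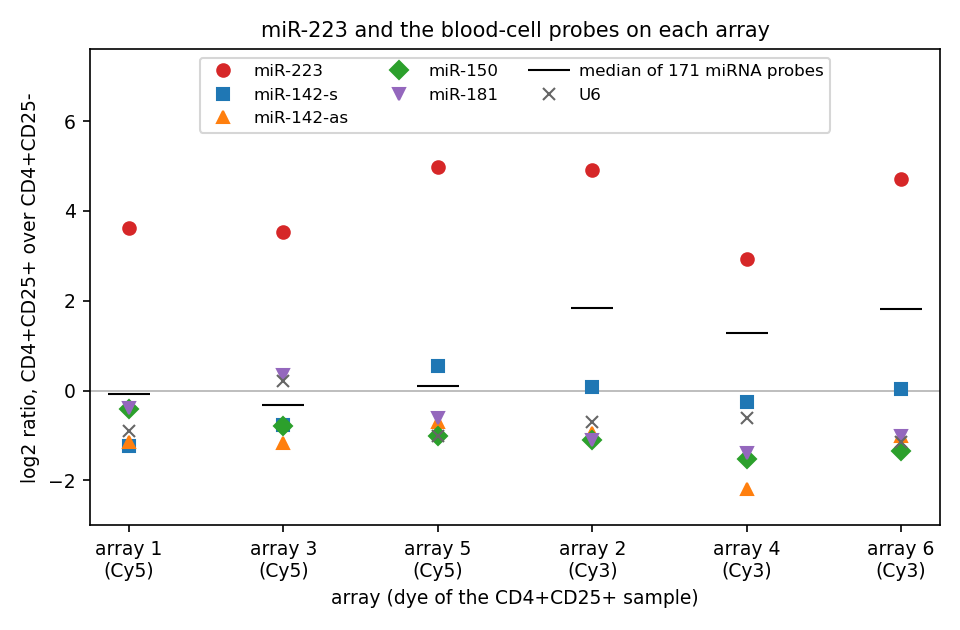
Turned log2 ratios of miR-223, the 4 blood-cell probes and U6 on each array, with the median of the 171 miRNA probes as a black bar. miR-223 lies between 2.93 and 4.99, and none of the 4 blood-cell probes exceeds 0.55.

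Mature sequences of the miR-142 and miR-181 probes, and of the probes that came second to miR-223 on 5 of the 6 arrays, are set out below for comparison with its seed GUCAGUU. None shares it, and miR-142a-3p, whose seed also starts with GU, is 12 edits from miR-223-3p over its whole length.

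miR-142a-3p: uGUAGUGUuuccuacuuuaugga
miR-142a-5p: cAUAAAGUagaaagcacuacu
miR-181a-5p: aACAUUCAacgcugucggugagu
miR-214-3p: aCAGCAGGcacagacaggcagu
miR-23a-3p: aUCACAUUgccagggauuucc

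Since miR-223 is a myeloid miRNA, the probes for 7 other miRNAs that rise in or mark myeloid cells were examined: miR-23a, miR-27a, miR-24, miR-21, miR-146, miR-155 and miR-34a. This list was chosen with earlier results of these data known and is not complete, so its counts only describe these 7. All 7 were called higher in CD4+CD25+ cells as deposited (limma), where 67.3% of the 171 miRNA probes were. After median centring 2 of 7 were, miR-23a and miR-146, against 5.26%. Their centred means were 2.56 and 2.14 in the Cy5 orientation. In the Cy3 orientation they were -0.47 and -0.25, so the sign turned with the dye. The median over the 7 mean ratios was 1.13, and 0.35 after centring, beside medians of 0.82 and 0.051 over all miRNA probes. Without arrays 3 and 2, or without arrays 5 and 6, 0 of 7 passed (limma, 6 at an unadjusted p under 0.05 each time). Of all 171 miRNA probes, 0 and 2 passed in these settings (limma, 98 and 85 at an unadjusted p under 0.05). Several of the 7 are also expressed or induced in T cells, so the list does not mark myeloid cells alone, and the part of other cells in the miR-223 ratio was not tested.

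By mean ratio all 7 lay below miR-223, which was chosen for having the highest ratio. The miR-23a probe, for a miRNA of a cluster that PU.1 controls, had 3.05, 2.02 and 2.32 on arrays 1, 3 and 5 and 1.78, -0.011 and 1.75 on arrays 2, 4 and 6. It shared the low value on array 4 with miR-223, and its mean was 1.82 ± 0.730 (SD, n = 3; limma adjusted p = 0.00464). miR-27a, of the same cluster, and miR-24, made from that cluster and its paralogue, had 0.63 ± 0.384 (adjusted p = 0.0272) and 1.11 ± 0.383 (adjusted p = 0.00569). miR-146, a brake on NF-kB signalling that acts through Traf6 and Irak1, lay between 0.45 (array 4) and 2.28 (array 1), with a mean of 1.72 ± 0.517 (adjusted p = 0.00411). miR-21, a miRNA induced in activated cells of many kinds, was above 0 on 5 of 6 arrays, array 4 being the exception at -0.30, and had a mean of 1.13 ± 0.530 (adjusted p = 0.00709).

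In the dye test as deposited, 1 of these 5 probes, miR-23a, passed with the higher ratio in the Cy5 orientation (limma adjusted p = 0.0219), against 7.02% of all miRNA probes. The other 4 had differences of 0.64 to 0.84 in that direction and did not pass (adjusted p = 0.103 to 0.198). After median centring all 5 passed in that direction (limma, largest adjusted p = 1.36e-05), against 33.9% of all miRNA probes. As deposited, the remaining 2 of the 7 passed in the Cy3 direction (adjusted p = 0.000437 and 0.000106), as 63.2% of all miRNA probes did. After centring these 2 did not pass the dye test (limma adjusted p = 0.68 and 0.217). miR-155, a target of Foxp3 in regulatory T cells, had means of 0.27 in Cy5 and 2.19 in Cy3. miR-34a, a target of p53 and C/EBP, had -0.080 and 2.18, with 1 of its 6 arrays below 0. Both pairs of means lay within the range of the other-tissue probes, as did those of miR-27a (1.01 and 0.25). The overall means of miR-155 and miR-34a were 1.23 ± 0.453 and 1.05 ± 0.510 (SD, n = 3, limma adjusted p = 0.00569 and 0.00728). Neither was called between the populations after median centring (limma adjusted p = 0.0883 and 0.31).

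**Figure D5:**
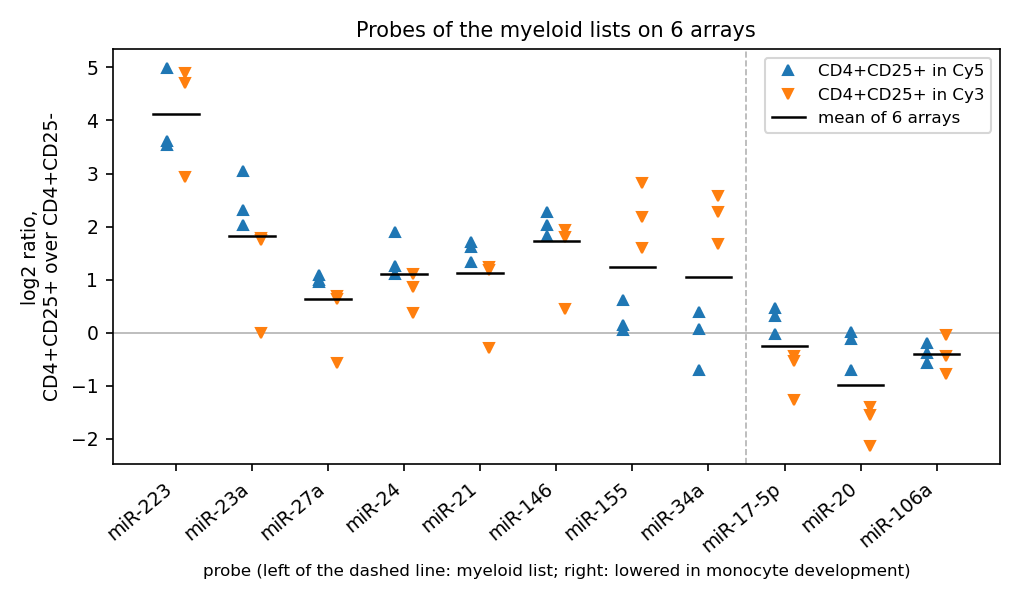
Turned log2 ratios on 6 arrays of miR-223 and 7 other miRNAs of the myeloid list, left of the dashed line, and of 3 miRNAs lowered in monocyte development, right of it. Triangles mark the dye of the CD4+CD25+ sample and bars the mean, which is 4.12 for miR-223 and at most 1.82 (miR-23a) for the others.

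The 3 miRNAs that are lowered in monocyte development, all from the miR-17 family, had mean ratios below 0. The sign for miR-17-5p changed with the dye orientation, with means of 0.25 in Cy5 and -0.75 in Cy3. miR-20 was called lower at -0.98 ± 0.383 (SD, n = 3; limma adjusted p = 0.00606), while miR-17-5p at -0.25 ± 0.354 and miR-106a at -0.40 ± 0.279 were not called. That is 1 of 3, against 8.77% of all miRNA probes. After median centring 3 of 3 were called lower, against 22.8%. The centred means still differed by orientation, with 0.35 in Cy5 and -2.40 in Cy3 for miR-17-5p. For miR-20 they were -0.17 and -3.34, and for miR-106a -0.29 and -2.07.

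Markers of other blood or vessel cells were few on the array. miR-126 and miR-126*, of endothelium and platelets, had 0.82 ± 0.156 and 1.36 ± 0.450 (SD, n = 3). Both were called higher as deposited, where 67.3% of all miRNA probes were. After median centring miR-126* was (limma adjusted p = 0.025) and miR-126 was not, against 5.26%. Platelets also hold miR-223, and their part in its ratio was not tested. The erythroid miR-144 had 0.69 ± 0.870, was called higher as deposited (adjusted p = 0.0302) and was at -0.079 after median centring. The second erythroid name, miR-451, matched no probe. Of the 25 other-tissue probes, 22 were called higher as deposited (67.3% of all miRNA probes). After median centring 0 were (limma, 1 at an unadjusted p under 0.05; 5.26% of all), and miR-7 was called lower.

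The pattern of miR-223 over the 6 median-centred arrays was most like those of miR-206, miR-19a and miR-195, with Pearson r of 0.97, 0.92 and 0.91. As deposited the same probes had r of 0.96, 0.88 and 0.93. These correlations are descriptions over 6 arrays that share 2 dye orientations, 5 of the 170 probes exceeded 0.9, and the median was 0.29. Likeness of pattern did not go with likeness of size. miR-206, a muscle miRNA, had a mean of 0.85 ± 0.707 (SD, n = 3), with its lowest value of -0.25 on array 4, where miR-223 was lowest too. miR-19a, of the miR-17/92 cluster, had -1.02 ± 0.477, and miR-195, of the miR-15/16 family, had -0.013 ± 0.412.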

How the data were processed

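Each array gave 1 value per probe for 178 probes with 0 missing. The deposited values are log ratios of both channels, taken as log2; no label or header states their background correction, normalization, software or direction, and array medians were not at 0. Intensities were not analysed here, and the number of arrays limits precision. Arrays with CD4+CD25+ cells in Cy3 were multiplied by -1. Differences between populations were tested with limma (3.58.1, R 4.3.3), lmFit and eBayes on 3 means of opposite-dye arrays, with Benjamini-Hochberg adjustment over 171 miRNA probes. A probe was called when its adjusted p was under 0.05 in each of 6 pairings; the largest p and SD are printed. miR-223 was part of this fit and counts in the shares over all 171 miRNA probes, but its own result is not given. The dye was tested on 6 arrays with an orientation column. The labels do not say that replicates came from separate animals, so p-values measure the spread between these samples. They rest on a variance pooled over probes and do not follow from the printed SDs alone.

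The steps were tested on simulated data of 171 probes in 20 simulations: 70.7% of log2 changes of 1 and 98% of changes of 2 between populations were recovered, and 88.6% of dye differences of 2. False calls made up 1.02% of the population calls and 5.6% of the dye calls. The simulation gave arrays no offset of their own and took the turning as known. Its dye effects were of either sign and set in a minority of probes. In the data the dye shift was mostly to 1 side, with 63.2% of the miRNA probes passing in the Cy3 direction. The simulated rates therefore need not hold for these data.

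Names follow the number in each probe ID, since the platform table does not list the miR-223 probe. That table held 1 gene symbol for 61 miRNA probes, several symbols for 1 and none for 109. Suffixes -s and -as were read as strands, and list names were otherwise matched exactly. The probe and lists were chosen with earlier results of these data known. Named were miR-223, the 4 blood-cell probes, the 5 next by mean, the 3 most alike over the arrays, the 3 nearest in sequence (the third by name among ties) and the members of the myeloid and blood lists. miR-10a, miR-301, miR-7, miR-23b, miR-210, miR-103, miR-142*, miR-181b and miR-181c were named after their values were seen. Alternatives were other centrings and scales, other readings of the dye, single orientations, other fits and leaving out arrays.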

Additional observations from a re-analysis of the deposited data

How the results depend on the processing

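The miR-223 ratio stayed above 0 in all settings but those that change the reading of the dyes: -0.066 with no array turned, -4.12 read as Cy3 over Cy5. It moved beyond 1 SD with scale normalization (5.01) and centring on other-tissue probes (3.20); leaving out pairs of opposite arrays gave 3.70 to 4.56. Quantile normalization gave 4.12 on every array by construction, since miR-223 ranked first on each. The margin over the blood-cell probes was 5.84 with scale normalization, 4.59 to 5.27 with pairs left out, -0.25 with no array turned and -4.91 with the other reading. Population calls numbered 130 as deposited, 48 with median centring, 14 with scale normalization, 44 with other-tissue centring, 19 in the Cy5 orientation alone against 147 in the Cy3 orientation alone, and 0 to 127 with pairs left out, the 0 coming in limma without arrays 3 and 2 (unadjusted, 98 were under 0.05). In limma the dye difference of miR-223 was 5.62 with scale normalization (adjusted p = 0.0184), 1.61 with median centring, 2.29 with other-tissue centring (adjusted p = 8.35e-05) and -0.76 to 0.23 with 1 array left out, none of these last passing. With median centring as well, chosen after seeing the data, it was 1.17 to 1.88, passing each time (largest adjusted p = 0.0437, without array 4). Dye calls numbered 120 as deposited, 78 with median centring, 50 with scale normalization and 53 with quantile normalization. Added after seeing the data, a replicate block for the dye test, as differences of opposite-dye arrays with the largest p of the 6 pairings, left miR-223 at -0.13 (limma adjusted p = 0.901) and, with median centring, at 1.61 (adjusted p = 0.0277); 91 and 77 probes passed.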
